A study of Mus musculus and Mus musculus
Oryx dammah with 30 samples.

Results

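Transcripts of 9 genes that the mouse embryo later uses for compaction and for filling its cavity were followed in embryos that had received somatic nuclei. The genes encode 3 water channels (Aqp3, Aqp8, Aqp9), the beta 1 subunit of the sodium pump (Atp1b1), 3 claudins (Cldn4, Cldn6, Cldn7), the tight junction scaffold ZO-1 (Tjp1) and E-cadherin (Cdh1). They were chosen by gene name, and each matched 1 entry among 53023 genes in the tables of the C2C12 four-cell and replication experiments and 1 among 55364 genes in the two-cell table. The study transferred nuclei of C2C12 cells, a myoblast line from C3H mice, into mouse embryos whose cell cycle had been stopped before division by demecolcine at 0.1 µg/ml, and measured polyA RNA by RNA-seq after culture for a further 24 h. The recipients came from C57BL/6 and DBA/2 parents. Libraries from transfers of Oryx dammah cells were not analysed here because their identifiers are not paired with gene names.

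Four-cell embryos that received C2C12 nuclei from 46 hours post insemination (hpi) were cultured without or with α-amanitin, a toxin that blocks RNA polymerase II, and gave 3 libraries per group from pools of 3 embryos. The replication experiment had the groups DR and D, both four-cell embryos without α-amanitin, with 3 libraries each from pools of 4 embryos. It asked whether the timing of transfer relative to DNA replication affects transcription, but the labels do not say which letters stand for which timing. Two-cell embryos received C2C12 nuclei from 21 hpi (early) or from 30 hpi (late) and gave 6 libraries without and 6 with α-amanitin, from pools of 5 embryos. The names of the two-cell columns (NT, Am, R and RAm, 3 each) do not say which are early. The 6 columns with Am in their names were taken as treated and the other 6 as untreated. All values used here count RNA of the recipient embryo and of the transferred nuclei together, so from them a transcript cannot be assigned to either genome. The study also separated transcripts by mouse strain sequence, and those results were not used here. In such bulk samples, fewer transcribing cells and less RNA per cell cannot be told apart.

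In the normal embryo, E-cadherin draws the blastomeres together at compaction. Claudins and ZO-1 then seal the outer cells into an epithelium, the sodium pump moves sodium ions across it, and water follows, in part through aquaporins, so that a cavity forms. Claudins are the membrane proteins that set how tight and how ion-selective the seal is, while ZO-1 ties them to the cytoskeleton.

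Levels are given as FPKM, which are scaled to transcript length and to library depth, so that genes can be compared within a table. Libraries held 1136771 to 3101002 counted reads in the four-cell experiment, 2603946 to 19181387 in the replication experiment and 4712268 to 10503779 in the two-cell experiment. Of 15 myoblast markers, 14, 15 and 15 were detected in the 3 tables. Their summed FPKM was 179 to 566 without and 177 to 1929 with α-amanitin in four-cell embryos, with Lgals1 (69.3 to 1832) and Acta2 (13.8 to 276) the highest on average, while Myod1, the defining myogenic factor, did not exceed 7.09. Of 10 four-cell embryo markers, all 10 were detected in each table. Of 10 cumulus cell markers, 7 were at 0 in every four-cell library, among them Has2, Ptx3 and Tnfaip6, while Amhr2 was at 15.1 to 16.9 FPKM without and 14.5 to 31.6 with α-amanitin. Of these 10, 8 were detected in two-cell embryos and 9 in the replication experiment. Cdx2, a defining trophectoderm factor, was at 0 in all libraries of the four-cell and replication experiments.

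In four-cell embryos without α-amanitin, Cldn4 and Aqp3 were far higher than in treated embryos, and these were the only 2 of the 8 members tested that met both criteria used for a call, namely a 4-fold change or more and an adjusted p under 0.05. In this comparison 613 of 9884 genes tested, or 6.2%, met them in that direction, and 0.364% met them in the other direction, with 0 of the 8 members. With 1 library left out, 55 to 836 genes and 0 to 2 members met them as higher without α-amanitin. The criteria were applied to limma fits of log2(FPKM + 1), with Benjamini-Hochberg adjustment over all genes tested. The median log2 change was 0.89 over the 8 members and 0.37 over all genes tested. Changes on this scale understate those of genes at low levels.

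Cldn4 (ENSMUSG00000047501.3, chr5:134945119-134946934 in mm10, minus strand), a claudin with a single exon, was at 19.1, 19.3 and 58.8 FPKM in the untreated libraries S15, S17 and S7. In the treated libraries S16, S18 and S8 it was at 3.02, 0.484 and 2.43 FPKM. The groups did not overlap, as for 27.6% of all genes tested in the same direction, and the mean FPKM was 16.4-fold higher without α-amanitin. The log2 change was 3.41 (SE 0.57, limma adjusted p = 0.0109). Its adjusted p was above 0.05 only when library S7 was left out (0.058, log2 change 2.88).

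Aqp3 (ENSMUSG00000028435.8, chr4:41092722-41098183 in mm10, minus strand) encodes a channel for water and glycerol, and the study itself picked it from these libraries as a marker, so it is not independent evidence. It was at 5.76, 30.8 and 21.7 FPKM in the untreated libraries S15, S17 and S7, and at 3.17, 0 and 1.38 in the treated libraries S16, S18 and S8. All 3 untreated libraries were above all 3 treated ones, with S15 nearest to them. The mean FPKM was 12.8-fold higher without α-amanitin, and the log2 change was 2.98 (SE 0.71, limma adjusted p = 0.0307). The adjusted p was 0.0799 without S18, 0.0594 without S8, 0.133 without S17 and 0.127 without S7, with log2 changes of 2.43, 3.05, 2.53 and 2.77 in that order.

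Summed trophectoderm markers moved with these 2 genes, at 28.3 to 76.4 FPKM without and 8.09 to 9.81 FPKM with α-amanitin, with Dab2 and Krt18 meeting both criteria among 5 tested of 10 and Cdx2 at 0. Summed four-cell embryo markers were at 8801 to 9995 FPKM without and 12206 to 15999 FPKM with α-amanitin, while Klf5 and Tfap2c among them met both criteria as higher without. Most single markers went against the sum, since 8 of the 9 tested had a positive log2 change, with a median of 0.95. Summed oocyte markers were at 51.5 to 60.3 without and 62.4 to 191 FPKM with α-amanitin. The part of these shifts in the values of Cldn4 and Aqp3 was not tested.

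The other water channels did not meet the criteria. Aqp9 (ENSMUSG00000032204.13, chr9:71110659-71168682, minus strand), which passes water and small solutes, was already at 31.9, 13.4 and 11.4 FPKM in the treated libraries S16, S18 and S8. It was at 46.5, 50.5 and 27.2 FPKM in S15, S17 and S7, so that S16 lay within the untreated range. The log2 change was 1.19 (SE 0.44, limma adjusted p = 0.111). Aqp8 (ENSMUSG00000030762.11, chr7:123462291-123468004, plus strand), another water channel, had 0 reads in all 6 libraries, where 3 reads would have been 0.612 to 1.67 FPKM. It was therefore not detectable at this depth.

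Cldn7 (ENSMUSG00000018569.12, chr11:69964779-69967885, plus strand) had the highest level of the 9 genes in both groups. It was at 50.5, 78.6 and 106 FPKM in S15, S17 and S7 and at 64.9, 61.9 and 34.9 FPKM in S16, S18 and S8. The groups overlapped, with a log2 change of 0.52 (SE 0.36, limma adjusted p = 0.377). Cldn6 (ENSMUSG00000023906.2, chr17:23679365-23682446, plus strand), a claudin of early embryonic epithelia, was at 1.75, 7.26 and 11.1 FPKM without and 6.64, 3.50 and 0 FPKM with α-amanitin in the same order of libraries. Its log2 change was 1.00 with an SE of 0.82 (limma adjusted p = 0.459).

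The sodium pump subunit, the scaffold and the cadherin were at low levels that overlapped between the groups. Atp1b1 (ENSMUSG00000026576.12, chr1:164437109-164458355, minus strand) was at 2.56, 3.19 and 5.10 FPKM in S15, S17 and S7 and at 1.05, 2.57 and 3.06 FPKM in S16, S18 and S8 (log2 change 0.54, SE 0.45, limma adjusted p = 0.465). Of the 3081 exon bases of Atp1b1, 575 are shared with Nme7 on the other strand, and strand-specific counting is not stated, so reads there cannot be told apart. Nme7, which encodes a kinase-family protein of cilia and centrosomes, was at 3.26 to 5.83 FPKM without and 0.107 to 4.72 FPKM with α-amanitin. Tjp1 (ENSMUSG00000030516.14, chr7:65296165-65527781, minus strand) was at 3.15, 2.45 and 3.49 FPKM without and 5.41, 1.24 and 2.18 FPKM with α-amanitin (log2 change 0.17, SE 0.48, limma adjusted p = 0.849). Cdh1 (ENSMUSG00000000303.12, chr8:106603351-106670246, plus strand) was at 2.97, 1.43 and 7.48 FPKM without and 2.75, 2.31 and 0.275 FPKM with α-amanitin (log2 change 0.79, SE 0.61, limma adjusted p = 0.426).

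**Figure D1:**
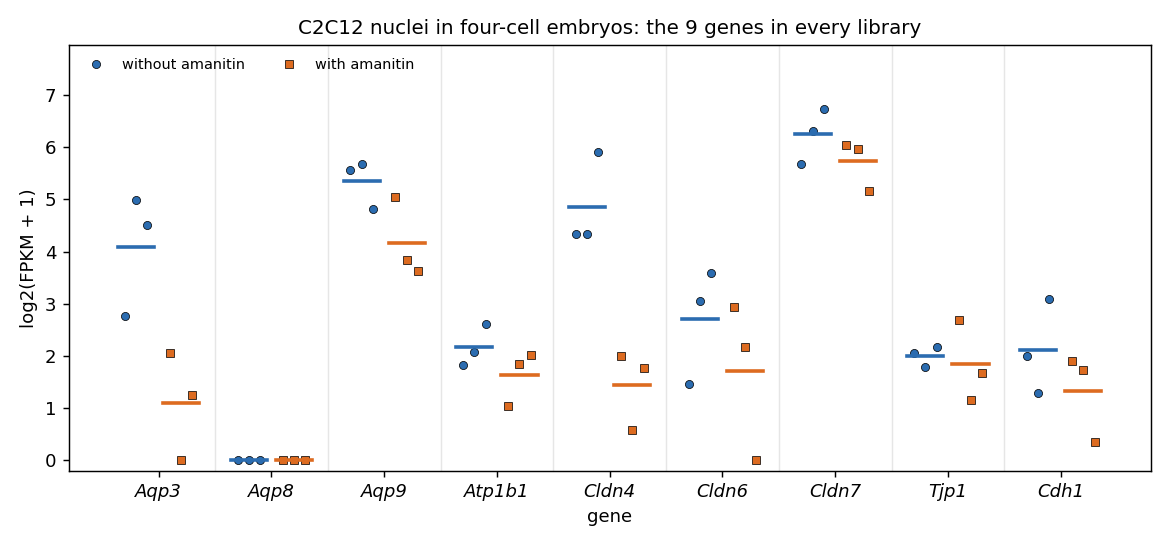
Each point is 1 library of four-cell embryos with C2C12 nuclei, on a log2(FPKM + 1) axis, for the 9 genes, with circles for untreated and squares for α-amanitin-treated libraries and a bar at the mean of 3. Cldn4 and Aqp3 separate by treatment, Cldn7 and Aqp9 are high in both groups, and Aqp8 is at 0 in all 6 libraries.

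The starts of the members that met the criteria are shown with Tjp1, which did not, so that what precedes each start can be compared. The sequences are from RefSeq on GRCm38.p6, which has mm10 coordinates, and run 5′ to 3′ on the gene's strand from 250 bases before to 50 bases after the start. Of the 9 genes, 8 matched an entry. Capitals mark matches, on either strand, to any of 7 motifs, which are spelled out with their shares of all windows after the sequences.
Aqp3, chr4:41098134-41098433, minus strand: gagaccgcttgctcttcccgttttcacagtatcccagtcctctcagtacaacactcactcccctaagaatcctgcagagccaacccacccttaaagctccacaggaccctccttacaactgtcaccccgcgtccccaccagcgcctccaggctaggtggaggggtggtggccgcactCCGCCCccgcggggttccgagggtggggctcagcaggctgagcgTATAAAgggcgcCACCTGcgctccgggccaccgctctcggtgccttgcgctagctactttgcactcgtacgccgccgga
Cldn4, chr5:134946885-134947184, minus strand: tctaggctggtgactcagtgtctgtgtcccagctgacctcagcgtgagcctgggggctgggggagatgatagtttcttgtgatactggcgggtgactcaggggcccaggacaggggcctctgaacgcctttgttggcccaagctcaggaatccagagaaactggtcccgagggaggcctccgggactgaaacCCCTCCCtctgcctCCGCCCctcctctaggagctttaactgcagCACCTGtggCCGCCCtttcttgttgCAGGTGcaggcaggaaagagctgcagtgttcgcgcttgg
Tjp1, chr7:65371195-65371494, minus strand: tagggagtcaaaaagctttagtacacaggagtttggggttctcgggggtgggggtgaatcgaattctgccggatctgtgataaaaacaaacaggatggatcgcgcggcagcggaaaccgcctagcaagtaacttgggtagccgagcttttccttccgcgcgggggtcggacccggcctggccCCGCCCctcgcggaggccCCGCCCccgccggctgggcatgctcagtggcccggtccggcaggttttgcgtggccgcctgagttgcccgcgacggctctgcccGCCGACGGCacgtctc

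The 3 windows had a like GC content, 64% for Aqp3, 61% for Cldn4 and 65.3% for Tjp1, all above the median of 52.7%. Tjp1 had 31 CG dinucleotides, Aqp3 had 21 and Cldn4 had 9, where the median of 32851 promoter windows was 7. Aqp3 held the TATA box, spelled TATAAA, beginning 29 bases before its start, which 13.6% of all windows hold. Aqp3 and Cldn4 both held the E-box of Snail and Zeb factors, spelled CACCTG, at 17 and 14 bases before their starts, and Cldn4 held it again on the other strand 11 bases after its start. This E-box occurs in 20.2% of all windows and was not matched in that of Tjp1, but the window of Cldn6, which met the criteria in neither α-amanitin comparison, held it 2 times. All 3 windows held a GC box, spelled GGGCGG, as 35.7% of windows do. Cldn4 held 1 match to the G-rich motif of ZFP281, spelled GGGAGGG and found in 22% of windows. Tjp1 held 1 match to the TFAP2 palindrome, spelled GCCNNNGGC and found in 16.6% of windows. None of the 3 held the TEAD motif, spelled GGAATG and found in 14.7% of windows, and none held the motif of NR5A2 and ESRRB, spelled AAGGTCA and found in 4.72% of windows.

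Most other genes of the pathway did not meet the criteria in four-cell embryos. Of 140 listed genes, 132 were in the table and 42 were tested, of which 3 met both criteria, all higher without α-amanitin (7.14%, against 6.2% of all genes). Among them were Perp, a desmosomal membrane protein, at 10.3 to 97.4 FPKM without and 0 to 3.87 with α-amanitin, and Pard6b, an apical polarity protein, at 2.45 to 5.31 against 0 to 0.854. The other sodium pump subunit genes gave 0 calls in 4 tested, and Atp1b3, the beta 3 subunit, was at 131 to 234 FPKM without and 181 to 270 with α-amanitin (log2 change -0.22, limma adjusted p = 0.654). Atp1b3 was thus far above Atp1b1 in every library. Fxyd4, a small regulator of the pump, had an adjusted p of 0.0483 (limma) with a log2 change of 1.99, just short of 4-fold. The other water channels gave 0 calls in 2 tested, and Aqp11 was at 1.33 to 6.85 FPKM without and 4.95 to 8.78 with α-amanitin. The other claudins gave 0 calls in 3 tested, led by Cldn34d at 0.461 to 5.99 and 0 to 10.9 FPKM. Among 7 other tight junction genes tested, none was called, and F11r, a junctional adhesion molecule, was at 36.4 to 94.6 without and 29.1 to 71.8 FPKM with α-amanitin. Among 6 other adherens junction genes tested, none met both criteria, although Epcam, an epithelial adhesion molecule, was lower without α-amanitin (17.4 to 24.4 against 42.3 to 54.6 FPKM, log2 change -1.13, limma adjusted p = 0.0352). The 1 other sodium and proton transporter tested, Slc12a2, was at 30.8 to 35.5 and 36.7 to 49.4 FPKM.

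Two-cell embryos gave another order of the same genes. Aqp9 was higher without α-amanitin in every library, while Aqp3 and Cldn4, which separated the groups in four-cell embryos, were at or near 0 in all 12 libraries. With FPKM scaled to 47 spike-ins, 2 of the 6 members tested, Aqp9 and Cldn7, met both criteria. The background was 34% of the 17196 genes tested, so 2 of 6 is no more than the table as a whole, and 0.163% met them in the other direction. An adjusted p under 0.05 alone was found for 3 of 6 members against 71.4% of all genes. With FPKM as deposited, 0 of 6 met both criteria and 3 had an adjusted p under 0.05 with a positive change, as had 38.9% of all genes. The scaling shifted the median log2 change of all genes from 0.67 to 1.49, and each member is to be read against that shift.

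Aqp9 was at 25.3, 20.5 and 8.51 FPKM in NT1, NT2 and NT3, and at 18.4, 18.0 and 25.2 FPKM in R3, R1 and R2. The treated libraries Am1, Am2 and Am3 were at 4.15, 4.02 and 7.12 FPKM, and RAm1, RAm2 and RAm3 at 5.74, 3.61 and 3.14 FPKM. All 6 untreated libraries lay above all 6 treated ones, as for 16.3% of all genes tested on FPKM as deposited, with NT3 and Am3 closest to each other. Its mean FPKM was 4.17-fold higher without α-amanitin. The log2 change was 3.04 (SE 0.46, limma adjusted p = 8.27e-05) after scaling and 1.82 (SE 0.33, limma adjusted p = 0.00131) as deposited. The log2 change was also positive in each pair of column names alone, at 2.30 for NT and Am and 3.76 for R and RAm after scaling, where the medians of all genes were 0.91 and 2.51. With median-of-ratios scaling over all libraries the log2 change of Aqp9 was 0.996 (limma adjusted p = 0.031), short of 4-fold.

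Aqp3 reached 1.05 FPKM in NT1 and 0.168 in 1 of the R libraries (R2), and its highest treated value was 0.370 in Am3, with 0 in 3 of 6 untreated and 4 of 6 treated libraries. Cldn4 did not exceed 0.166 FPKM, about 3 reads, in any of the 12 libraries. Aqp8 was at 0 except in NT1, at 0.729 FPKM. None of these 3 passed the filter of at least 1 FPKM in at least 3 libraries. At this depth 3 reads of Cldn4 correspond to 0.157 to 0.351 FPKM.

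Cldn7 depended on which two-cell columns were compared. In the R and RAm columns it was at 5.81, 4.08 and 5.37 FPKM without (R3, R1, R2) and at 0, 0.291 and 0.0735 FPKM with α-amanitin (RAm1 to RAm3, in that order), with no overlap. How many of all genes did not overlap in these columns was not counted. In the NT and Am columns Cldn7 was at 2.53, 6.11 and 1.29 FPKM without and 2.40, 2.31 and 3.73 FPKM with α-amanitin, which overlapped. Over all 12 libraries the log2 change was 2.03 (SE 0.47, limma adjusted p = 0.00115) after scaling and 1.24 (SE 0.44, limma adjusted p = 0.0325) as deposited. The call was lost when any of NT2, RAm1, RAm2, RAm3, R3 and R2 was left out (1.83 to 1.99), and with median-of-ratios scaling the log2 change was 0.87 (limma adjusted p = 0.0965). It was 3.36 in the R and RAm columns alone and 0.67 in the NT and Am columns alone after scaling, where the medians of all genes were 2.51 and 0.91. An interaction term put the difference between the pairs of columns at 2.77 (SE 0.60, limma adjusted p = 0.0016) after scaling and 2.40 as deposited (adjusted p = 0.0028). A difference of either sign with a limma adjusted p under 0.05 was found for 53.2% of all genes tested after scaling and 44.5% as deposited.

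Cldn6 differed most between the pairs of columns. It was at 5.44, 6.13 and 7.49 FPKM in the untreated R libraries (R3, R1 and R2) and at 0.799, 0 and 0 FPKM in RAm1, RAm2 and RAm3. In NT1, NT2 and NT3 it was at 0.0744, 0.664 and 0 FPKM, while Am1 and Am2 reached 4.93 and 8.66 FPKM and Am3 was at 0.0982. The log2 change over all 12 libraries was 1.12 (SE 0.75, limma adjusted p = 0.185) after scaling, and the interaction was 5.06 (SE 0.79, limma adjusted p = 0.000173) after scaling and 4.30 (SE 0.88, limma adjusted p = 0.00197) as deposited. In the R and RAm columns alone the log2 change was 3.59 after scaling (limma adjusted p = 3.54e-06), where the median of all genes was 2.51.

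Atp1b1 was higher in the treated libraries of the NT and Am columns, at 12.5, 14.0 and 17.1 FPKM in Am1 to Am3 against 4.59, 5.24 and 7.04 FPKM in NT1 to NT3. In the R and RAm columns it was at 5.66, 3.77 and 5.15 FPKM in R3, R1 and R2 and at 5.69, 4.12 and 4.78 FPKM in RAm1 to RAm3. Only the Am libraries thus stood apart from the other 9 in FPKM as deposited. In the R and RAm columns alone the log2 change was -0.0063 as deposited (limma adjusted p = 0.983) and 1.62 after scaling (SE 0.26, limma adjusted p = 0.000433), short of 4-fold. Atp1b1 lay below the median of all genes in these columns, which was 1.305 as deposited and 2.51 after scaling. The sign of its overall log2 change depended on the scaling, 0.57 (SE 0.44, limma adjusted p = 0.249) after scaling and -0.62 (SE 0.37, limma adjusted p = 0.166) as deposited. The interaction was 2.17 (SE 0.43, limma adjusted p = 0.000894) after scaling and 1.23 (SE 0.35, limma adjusted p = 0.013) as deposited. Nme7, which shares exon bases with it, was at 2.78 to 4.10 FPKM in the 6 untreated libraries and at 3.17 to 7.88 in the 6 treated ones, with 3.17 to 3.64 in Am1 to Am3.

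Tjp1 was at 2.52, 1.19 and 5.84 FPKM in NT1 to NT3 and at 3.12, 2.86 and 4.06 FPKM in R3, R1 and R2. The treated libraries were at 3.31, 0.741 and 1.39 FPKM in Am1 to Am3 and at 1.46, 1.12 and 0.238 FPKM in RAm1 to RAm3, overlapping the untreated range over all 12 libraries. In the R and RAm columns alone the groups did not overlap, with a log2 change of 2.37 after scaling (limma adjusted p = 5.26e-05) and 1.21 as deposited (limma adjusted p = 0.00843), and the interaction was 1.39 (limma adjusted p = 0.0553). Tjp1 lay below the median of all genes in these columns, which was 2.51 after scaling and 1.305 as deposited. How many of all genes did not overlap there was not counted. Over all libraries the log2 change of Tjp1, 1.72 after scaling (SE 0.36, limma adjusted p = 0.000622), fell short of 4-fold, and as deposited it was 0.87 (SE 0.34, limma adjusted p = 0.0454). Cdh1 did not exceed 2.97 FPKM in any two-cell library. It was at 1.497, 1.09 and 0.404 FPKM in NT1 to NT3 and at 2.67, 2.97 and 1.37 FPKM in Am1 to Am3. In R3, R1 and R2 it was at 1.02, 0.549 and 1.19 FPKM, and in RAm1 to RAm3 at 1.25, 0.161 and 0 FPKM. The overall log2 change of Cdh1 was 0.51 after scaling and -0.14 as deposited, neither with an adjusted p under 0.05. In the R and RAm columns alone it was 1.21 after scaling (limma adjusted p = 0.00396) and 0.46 as deposited (limma adjusted p = 0.213). Both lay below the medians of all genes in these columns, 2.51 and 1.305.

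**Figure D2:**
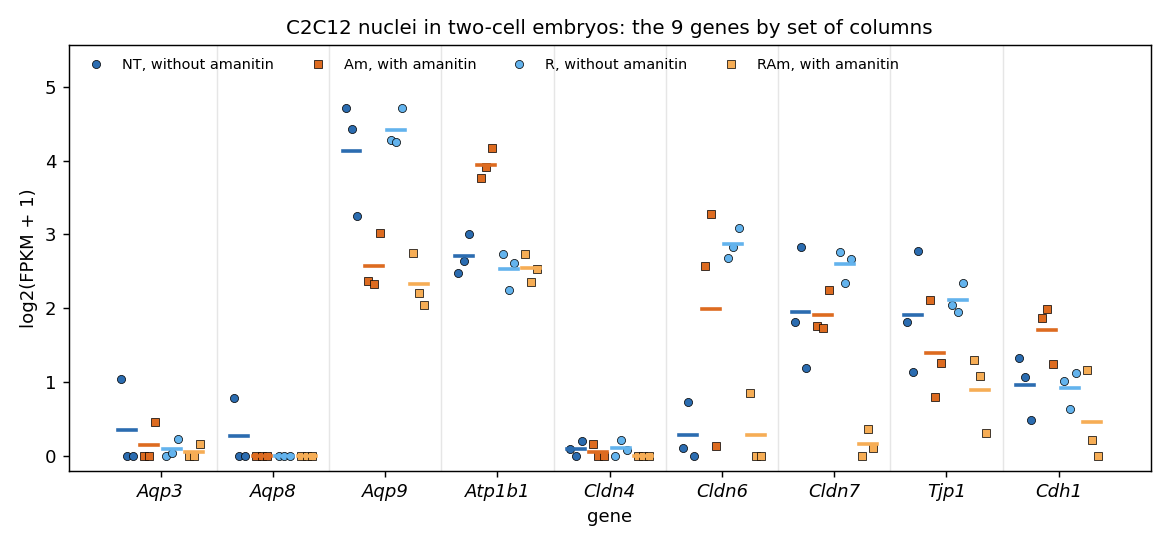
Each point is 1 library of two-cell embryos with C2C12 nuclei, on a log2(FPKM + 1) axis with FPKM as deposited, in 4 sets of columns of 3 libraries each, with circles for untreated and squares for treated libraries and a bar at the mean. Aqp9 separates by treatment in both pairs of columns, Cldn6, Cldn7 and Tjp1 separate in R against RAm, and Atp1b1 is highest in the Am libraries. How many of all genes separate within a pair of columns was not counted.

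The pairs of columns also differed in marker levels. The summed FPKM of 10 four-cell embryo markers was 697 to 1308 in the RAm libraries and 6656 to 12284 in the other 9, and that of 11 oocyte markers was 1044 to 2403 in RAm and 99.0 to 495 in the other 9. Single genes were large in these sums. They were Dppa3 in the first (7130 to 12248 FPKM untreated and 689 to 7576 treated) and Oosp1 in the second (35.3 to 144 untreated and 151 to 1780 treated). Myoblast markers summed to 135 to 460 in R, 1072 to 1419 in RAm, 870 to 4125 in NT and 2032 to 2205 in Am, sums in which Lgals1 was large (109.9 to 3589 FPKM untreated and 1025 to 2126 treated). Of 8 myoblast markers tested, 7 had a positive log2 change after scaling, as had 89.8% of all genes, and 2 met both criteria, against 34% of all genes, the matrix genes Col3a1 (6.68 to 45.3 against 0.615 to 1.70 FPKM) and Fn1 (5.74 to 49.5 against 1.88 to 2.99 FPKM). Spike-ins took 12.6% to 18.5% of FPKM in treated and 5.82% to 12.2% in untreated libraries. Their part in the members' differences was not tested, and since the columns cannot be assigned to early or late transfer, timing and any other difference between the pairs of columns cannot be told apart.

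The promoter windows of the 2 genes that met the criteria in two-cell embryos were shown for comparison with those of Aqp3 and Cldn4. RefSeq lists 2 starts for each.
Aqp9, chr9:71163240-71163539, minus strand: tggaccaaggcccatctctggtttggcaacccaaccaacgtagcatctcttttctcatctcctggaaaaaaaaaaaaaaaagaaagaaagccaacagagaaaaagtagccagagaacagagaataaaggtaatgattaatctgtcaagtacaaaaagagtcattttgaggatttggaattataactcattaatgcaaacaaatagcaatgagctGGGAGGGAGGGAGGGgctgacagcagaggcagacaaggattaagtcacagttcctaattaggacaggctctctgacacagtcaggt
Aqp9, chr9:71162584-71162883, minus strand: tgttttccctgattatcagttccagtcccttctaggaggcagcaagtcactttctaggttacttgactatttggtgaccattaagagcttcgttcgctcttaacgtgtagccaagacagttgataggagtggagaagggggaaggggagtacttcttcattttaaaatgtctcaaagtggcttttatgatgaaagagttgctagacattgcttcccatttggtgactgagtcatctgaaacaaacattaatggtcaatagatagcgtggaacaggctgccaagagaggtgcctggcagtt
Cldn7, chr11:69964529-69964828, plus strand: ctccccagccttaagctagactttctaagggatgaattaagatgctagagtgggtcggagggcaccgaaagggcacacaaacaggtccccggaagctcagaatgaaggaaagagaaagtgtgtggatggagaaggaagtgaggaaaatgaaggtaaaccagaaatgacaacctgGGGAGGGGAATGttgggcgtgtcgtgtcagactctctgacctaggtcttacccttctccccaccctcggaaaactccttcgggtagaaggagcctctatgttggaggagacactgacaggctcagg
Cldn7, chr11:69965171-69965470, plus strand: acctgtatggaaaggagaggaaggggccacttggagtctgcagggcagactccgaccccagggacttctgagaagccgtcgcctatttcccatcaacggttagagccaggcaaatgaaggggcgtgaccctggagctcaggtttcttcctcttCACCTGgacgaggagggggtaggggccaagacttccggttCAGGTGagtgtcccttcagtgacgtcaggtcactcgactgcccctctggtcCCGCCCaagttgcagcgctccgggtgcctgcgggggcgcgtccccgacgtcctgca

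The first Aqp9 window held 3 overlapping G-rich matches between 36 and 22 bases before its start and only 1 CG dinucleotide, and its GC content was 41.3%, against a median of 52.7% over all windows. The second Aqp9 window held no match to any of the 7 motifs. The first Cldn7 window held a G-rich match that overlaps a TEAD match, beginning 76 and 70 bases before the start. The second Cldn7 window, with a GC content of 62.3%, held a GC box and 2 E-box matches and no G-rich match. A window of Aqp3, of Cldn4, of Cldn6 and of Cldn7 therefore held the E-box letters, and no window of Aqp9 did.

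Of the other genes of the pathway, 56 of 132 in the table were tested in two-cell embryos, and 13 met both criteria after scaling, all higher without α-amanitin (23.2%, against 34% of all genes). As deposited 7 of the 13 did (12.5% of the 56, against 11.1% of all genes). The log2 changes that follow are after scaling and the FPKM as deposited. The largest changes in the lists were those of Crb3, an apical polarity protein (29.3 to 80.9 FPKM without and 1.67 to 42.7 with α-amanitin, log2 change 3.67), and Cdc42, a small GTPase of cell polarity (252 to 344 and 19.5 to 192 FPKM, log2 change 3.52). Atp1b3 was at 126 to 194 FPKM without and 11.2 to 130 with α-amanitin, with a log2 change of 3.50 (limma adjusted p = 0.000697) after scaling and 2.15 (limma adjusted p = 0.0152) as deposited. Gap junction gene Gja1 was at 4.99 to 10.4 FPKM without and 0.00516 to 1.84 with α-amanitin (log2 change 3.30, limma adjusted p = 1.93e-05). Adherens junction genes gave 3 calls in 9 tested, namely Epcam, the beta catenin gene Ctnnb1 and the p120 catenin gene Ctnnd1, with Ctnnd1 at 2.01 to 3.68 against 0 to 0.795 FPKM. Epcam was at 50.6 to 108 against 1.24 to 106 FPKM, which overlapped, and its log2 change of 3.19 after scaling was 1.97 as deposited (limma adjusted p = 0.0969). Other tight junction genes gave 2 calls in 10 tested, F11r and Cxadr, and apical polarity genes 3 in 20, with Lin7c beside Crb3 and Cdc42. Other claudins gave 1 call in 4 tested (Cldn34d, 2.23 to 19.3 against 0 to 4.38 FPKM), other water channels 1 in 3 (Aqp11, 2.52 to 7.61 against 0 to 4.89 FPKM) and other sodium and proton transporters 1 in 2 (Slc12a2, 17.6 to 47.8 against 1.14 to 21.2 FPKM). Desmosome genes gave 0 calls in 2 tested, and Pkp4 was at 3.73 to 5.36 FPKM without and 7.07 to 39.6 with α-amanitin.

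In the replication experiment all 9 genes were detected, and 0 of 8 tested met the criteria between DR and D. No gene did (0% of 14570 tested with limma, with 88 at an unadjusted p under 0.05). With FPKM scaled to 19 spike-ins, the SE of the members' log2 changes was 1.89 to 2.37, because the scaling factors ran from 0.0937 to 5.60, so this scaling left little power for changes of the size seen above. The 8 members' log2 changes were all negative after scaling (median -0.90, all genes -1.41) and all positive as deposited (median 0.79, all genes 0.02). The scaling moved nearly all genes alike, with 0.782% of them positive after scaling, and each of the 8 members lay above the median of all genes in both cases, above 56.2% to 99.2% of genes after scaling and 67.6% to 99.9% as deposited.

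Cldn7 was at 103, 83.3 and 92.9 FPKM in DR1, DR2 and DR3 and at 45.8, 45.5 and 24.4 FPKM in D1, D4 and D5. Cldn4 was at 67.2, 19.5 and 40.4 FPKM in DR1 to DR3 and at 13.5, 10.1 and 10.7 FPKM in D1, D4 and D5. Both were higher in every DR library than in every D library in FPKM as deposited, as were 8.21% of all genes tested. As deposited the log2 change of Cldn4 was 1.65 (SE 0.44, limma unadjusted p = 0.00644, adjusted p = 0.788). That of Cldn7 was 1.30 (SE 0.29, limma unadjusted p = 0.0028, adjusted p = 0.788). After scaling to spike-ins they were -0.03 (SE 2.25) and -0.39 (SE 2.37), and their groups overlapped.

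The groups overlapped for each of the other members. Aqp3 was at 42.9, 16.4 and 23.7 FPKM in DR1 to DR3 and 19.9, 14.8 and 12.04 FPKM in D1, D4 and D5. Aqp9 was at 81.9, 76.0 and 45.2 FPKM in DR and 49.2, 57.5 and 15.2 FPKM in D, in the same order of libraries. The lowest value of Aqp9 was thus in D5, the library in which Cldn6 was at 0.0952 FPKM, against 10.4 and 21.6 in D1 and D4. Cldn6 was at 10.9, 33.7 and 17.9 FPKM in DR1 to DR3. Atp1b1 was at 8.48, 10.6 and 6.79 FPKM in DR and 6.69, 11.99 and 2.35 FPKM in D. Cdh1 was at 8.004, 6.76 and 3.13 FPKM in DR and 4.46, 4.15 and 2.09 FPKM in D. Tjp1 was at 5.85, 3.40 and 3.83 FPKM in DR and 3.27, 5.49 and 2.35 FPKM in D. Aqp8 was at 0, 0.297 and 0.486 FPKM in DR and 0.418, 0 and 0 FPKM in D, at most 4 reads, and was not tested. D5 had the lowest level in its group, or shared it, for 8 of the 9 genes. Summed trophectoderm markers were at 29.4 to 41.2 FPKM in DR and 12.4 to 29.3 in D, and myoblast markers at 184 to 291 in DR and 374 to 462 in D. Lgals1 was most of the myoblast sum (147 to 213 FPKM in DR and 299 to 429 in D), and the ranges of the other myoblast markers overlapped between DR and D. The part of these markers in the members' values was not tested.

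**Figure D3:**
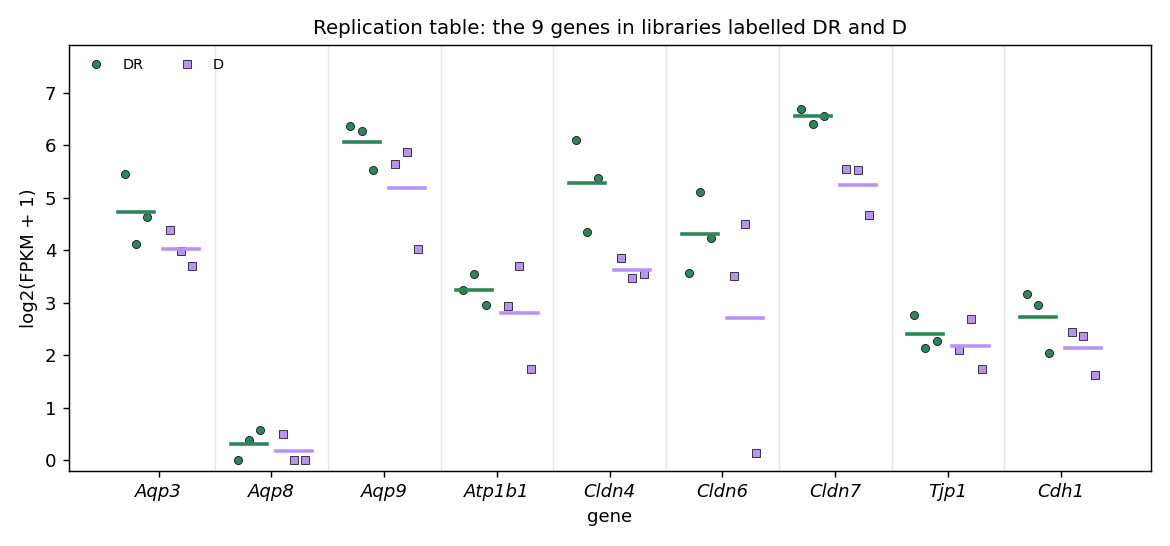
Each point is 1 library of the replication experiment, on a log2(FPKM + 1) axis with FPKM as deposited, with circles for DR, squares for D and a bar at the mean of 3. All 3 DR libraries are above all 3 D libraries for Cldn4 and Cldn7, and the groups overlap for the other 7 genes.

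Of the other pathway genes, 51 were tested between DR and D and 0 met the criteria. Atp1b3, with the highest mean of the sodium pump genes, was at 122 to 268 FPKM in DR and 136 to 178 in D. F11r was at 50.1 to 117 and 25.4 to 66.7 FPKM, Crb3 at 45.6 to 97.2 and 42.2 to 57.2 FPKM, and Epcam at 45.3 to 68.1 and 16.2 to 62.0 FPKM.

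Set side by side, the same genes held different ranks at the 2 recipient stages. No test was made between the tables, which the authors normalized separately. Cldn4 averaged 42.4 ± 23.9 FPKM (SD, n = 3) in DR, 32.4 ± 22.9 (SD, n = 3) in untreated four-cell embryos and 11.4 ± 1.81 (SD, n = 3) in D, and 0.0730 ± 0.0704 (SD, n = 6) in untreated two-cell embryos. The ranges of DR and untreated four-cell embryos overlapped. Aqp3 followed the same order, with 27.7 ± 13.7, 19.4 ± 12.7 and 15.6 ± 3.99 FPKM in the 3 untreated four-cell groups, whose ranges overlapped, and 0.207 ± 0.418 in untreated two-cell embryos. Cldn7 was at 93.0 ± 9.80 FPKM in DR, 78.3 ± 27.7 in untreated four-cell embryos, 38.6 ± 12.3 in D and 4.197 ± 1.94 in untreated two-cell embryos. Aqp9 spanned less, from 67.7 ± 19.7 FPKM in DR to 19.3 ± 6.18 in untreated two-cell embryos and 4.63 ± 1.502 in treated two-cell embryos. Atp1b1 had its highest mean in treated two-cell embryos, at 9.70 ± 5.52 FPKM, which rests on the Am columns, at 14.5 ± 2.31 (SD, n = 3), since the RAm columns were at 4.86 ± 0.787 (SD, n = 3), below the means of DR (8.64) and D (7.01). Its lowest mean was in treated four-cell embryos, at 2.23 ± 1.05. Tjp1 had group means from 1.38 to 4.36 FPKM, and each of its ranges overlapped that of the next group in order. The gene model of Cldn6 had 1506 bases in the four-cell and replication tables and 1721 in the two-cell table, so its levels are not on one footing.

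**Figure D4:**
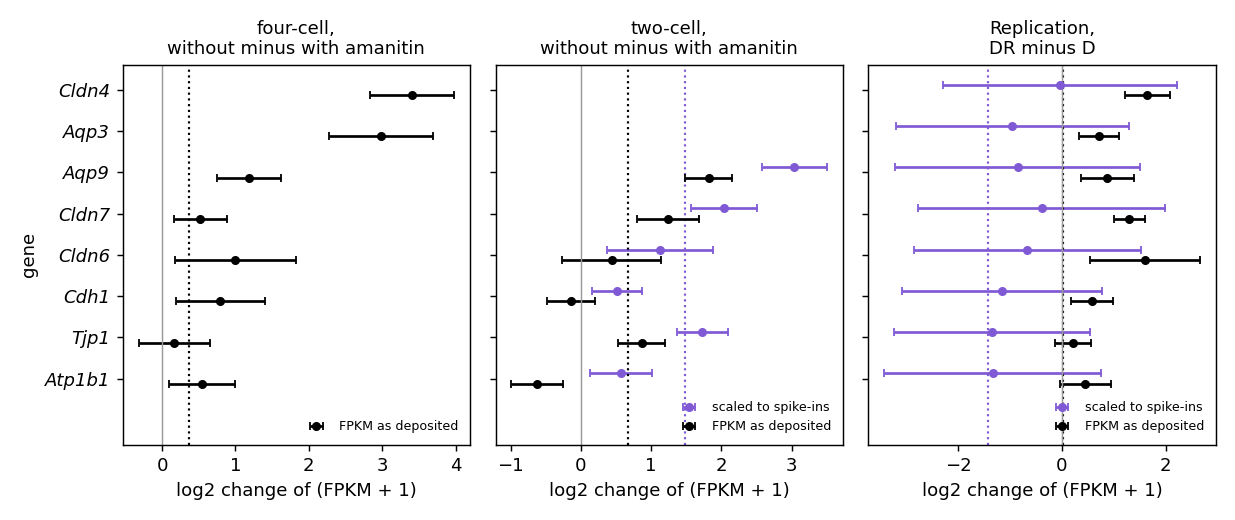
Points are log2 changes of (FPKM + 1) from limma and bars are their standard errors, for the members tested in each comparison, with FPKM as deposited in black and scaled to spike-ins in purple, and dotted lines at the median of all genes tested. Cldn4 and Aqp3 lead in four-cell embryos and Aqp9 in two-cell embryos, and in the replication experiment the members and the median of all genes shift together between the scalings.

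Over the 12 two-cell libraries, the tested genes whose log2(FPKM + 1) followed a member most closely were picked as a description. For Aqp9 they were G530012D18Rik and Gm49527, and for Cldn7 they were Dnajc3, which encodes a chaperone of the endoplasmic reticulum, and Gm14519. For Cdh1 they were Nrip3 and Prss45, for Atp1b1 Gm12138 and Gm38056, for Cldn6 Gm37239 and Gm49975, and for Tjp1 Stfa2l1 and Obox3-ps7. Pearson's r of these pairs lay between 0.899 and 0.982, and the libraries share 2 treatments and 2 pairs of columns.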

How the data were processed

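RNA-seq values of 24 libraries were taken as the authors deposited them, in FPKM per gene. Reads had been filtered with Trimmomatic, trimmed with Trim Galore and cutadapt, mapped to mm10 with STAR and, per the labels, counted with featureCounts, with no versions given in the sources used here. A further 4 columns of the replication table, which match no sample, were not used. FPKM were scaled to spike-ins by the median of ratios where at least 10 were above 0 in every library, which held for the two-cell and replication tables. Genes reaching 1 FPKM in at least 3 libraries entered fits of log2(FPKM + 1) by limma 3.58.1 (R 4.3.3), which modelled the trend of variance with mean, and p-values were adjusted by Benjamini-Hochberg over all of them. Calls needed an adjusted p under 0.05 and a 4-fold change. The script was tested on simulated data.

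The members and gene lists were chosen with earlier results of these data known. All 9 members were named. Of other lists, at most 4 called genes by size were named, otherwise the 1 or 2 with the highest mean FPKM. Pools of embryos were the replicates, and whether they came from separate days is not stated, so p-values measure the spread between pools. Floors of 3 reads cover counting error only. Multiplied back by gene length and depth, 100% of the values above 0 in the four-cell table and 40.3% to 50.5% in the others came within 0.01 of a whole read, so reads are approximate in the latter. Alternatives were the pseudocount, the filter, the scaling, limma voom on recovered reads, leaving out each library and, in the two-cell table, a replicate block. Those by column name were added after seeing the data. One result from the gene lists is not reported here.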

Additional observations from a re-analysis of the deposited data

Results flagged for a closer look

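The α-amanitin effect in two-cell embryos differed between the R and RAm columns and the NT and Am columns for 4 members. The difference of the log2 changes, after scaling to spike-ins, was 5.06 for Cldn6, 2.77 for Cldn7, 2.17 for Atp1b1 and 1.47 for Cdh1 (limma interaction, adjusted p = 0.000173, 0.0016, 0.000894 and 0.0387). As deposited, Cdh1 had a difference of 1.21 with an adjusted p of 0.0696. These pairs of columns were defined by name after seeing the data. Of all genes tested, 53.2% had an interaction of either sign with a limma adjusted p under 0.05 after scaling, and 44.5% as deposited.

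Single libraries stood far from the other 5 of their group in 5 of 17 two-cell member groups with any spread, by the gap to the nearest library as a share of the group's range on the log2 scale. Chance gives about 1 in 20 for continuous values, which does not hold for groups with libraries at 0, and where 5 of 6 are at 0 (Aqp8 untreated, Cldn4 treated) the share is 1.0 by construction. The number of such libraries is therefore not to be read against chance. NT1 was high for Aqp3 (share 0.784, 1.05 FPKM against 0.168) and Aqp8 (1.0, 0.729 FPKM against 0). Am3 was high for Aqp3 (0.647, 0.370 FPKM against 0.117) and Am1 for Cldn4 (1.0, 0.117 FPKM against 0). NT3 was low for Aqp9 (0.683, 8.51 FPKM against 18.0). Apart from Aqp9, these were at about 1 FPKM or less.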

How the results depend on the processing

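In four-cell embryos, the number of members called higher went from 2 to 1 with a pseudocount of 0.1 or with no filter, Aqp3 being lost (adjusted p 0.0878 and 0.0977), and ranged from 0 to 2 with a library left out, with 0 without S7. Genes called higher went from 613 to 259 (5 lower, from 36) with no filter, to 929 with limma voom on recovered reads, and to 1093 (112 lower) without the 4-fold criterion. With a library left out they ranged from 55 (without S7) to 836, and lower calls from 5 to 53, with 78 higher without S15 and 122 without S17. Tjp1 changed sign with median-of-ratios scaling (-0.059) and without S18 (-0.17, against up to 0.59). Cldn4 stayed called in 10 of 11 alternatives and Aqp3 in 5 of 11.

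In two-cell embryos, members called higher went from 2 to 0 with median-of-ratios scaling or FPKM as deposited, to 1 (0 as deposited) in the NT and Am columns alone, to 4 (3 as deposited) in the R and RAm columns alone, and to 3 with a pseudocount of 0.1, limma voom or no 4-fold criterion, with 1 to 2 when a library was left out. Tjp1 was called with a pseudocount of 0.1 (2.64), with limma voom (2.96), without the 4-fold criterion (1.72) and in the R and RAm columns alone (2.37). Without NT2, RAm1, RAm2, RAm3, R3 or R2, Cldn7 fell below 4-fold. Genes called higher and lower, 5851 and 28, became 10113 and 150 with a pseudocount of 0.1, 798 and 812 with median-of-ratios scaling, 1906 and 272 as deposited, 10537 and 150 with limma voom, and 12278 and 281 without the 4-fold criterion. Lower calls were 17 with no filter. The NT and Am columns alone gave 1385 and 25 (470 and 70 as deposited), and the R and RAm columns alone 8935 and 166 (4747 and 888 as deposited). The share of all genes called was not worked out for a pair of columns alone, so the member counts there have no background beside them. The median log2 change of all genes after scaling was 0.91 in the NT and Am columns and 2.51 in the R and RAm columns. With a library left out, genes called higher and lower ranged from 4920 to 6695 and from 13 to 57. Atp1b1 changed sign with median-of-ratios scaling (-1.37), as deposited (-0.62), in the NT and Am columns (-0.49, as deposited -1.24) and in R and RAm as deposited (-0.0063). Cdh1 changed sign with median-of-ratios scaling (-0.42), as deposited (-0.14) and in the NT and Am columns (-0.21, as deposited -0.74).

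With the replicate block, on the numbers in the two-cell column names, 5842 genes were called higher and 28 lower, and Aqp9 and Cldn7 stayed called. Libraries of the same number did not deviate together (correlations -0.00437 to 0.0789). With 3 libraries per set of columns, this cannot exclude that libraries of the same number were made together. No paired analysis was run in the other tables, because nothing states which of their libraries belong together. The S numbers of the four-cell columns are not in the labels, and whether adjacent S numbers mark pairs is not stated. The numbers of D1, D4 and D5 are not all those of the labels.

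Between DR and D, 0 genes were called in every setting run. The signs of the 8 members moved with the median of all genes, which was -1.41 after spike-in scaling, -0.03 with median-of-ratios scaling and 0.02 as deposited, so that their change of sign is no result about the members. With median-of-ratios scaling the log2 changes were 0.40 for Atp1b1, 0.65 for Aqp3, 1.59 for Cldn4, 0.17 for Tjp1, 0.53 for Cdh1, 0.82 for Aqp9, 1.24 for Cldn7 and 1.53 for Cldn6. As deposited they were 0.45, 0.71, 1.65, 0.22, 0.58, 0.88, 1.30 and 1.59 in the same order. Cldn4 and Cldn6 were also positive with a pseudocount of 0.1 (0.062 and 0.20) and with limma voom (0.093 and 1.05). Leaving out a library gave ranges of -2.54 to 0.46 for Aqp3, -1.49 to 1.33 for Cldn4, -2.42 to 0.094 for Cdh1, -2.93 to 0.65 for Aqp9, -2.22 to 1.03 for Cldn7 and -2.71 to 0.84 for Cldn6, the highest without D1 and the lowest without D5. The cause of these changes was not tested. Counting error limits Aqp8 throughout (at most 9 reads in any library), Cldn4 in two-cell embryos (at most 3 reads) and Aqp3 in two-cell embryos outside NT1 (at most 4 reads, against 15 in NT1). A fit with early or late transfer as a term was not run, because the column names do not give the timing.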
